A study of Mus musculus with 18 samples.

Results

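The imprinted genes of the Prader-Willi and Angelman region on mouse chromosome 7 were examined across 4 doses of glyphosate in the brain. The 6 genes Ube3a, Snrpn, Ndn, Magel2, Mkrn3 and Peg12 were chosen as the named genes of the interval, and each was matched by symbol to its Entrez row. All 6 were found among the 27179 genes of the count table, and 4 of them (Ube3a, Ndn, Magel2 and Mkrn3) had enough counts to be among the 15863 genes tested. RNA was isolated from a brain hemisphere of each of 18 wild-type C57BL/6J mice, which had received a daily oral gavage over 14 days, begun at 4 months. Controls were given the same sodium hydroxide solution, brought to neutral pH, with no glyphosate in it, and numbered 5 (2 males and 3 females). The groups given 125 mg/kg (3 males and 2 females), 250 mg/kg (3 males and 1 female) and 500 mg/kg (2 males and 2 females) held 5, 4 and 4 mice. The question the design puts to these genes is whether their RNA changes with the dose.

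Genomic imprinting leaves a gene active on the chromosome of only one parent. In this region Snrpn, Ndn, Magel2, Mkrn3 and Peg12 are read from the paternal chromosome, and loss of paternal expression across the matching human region underlies Prader-Willi syndrome, a disorder of infant feeding, later overeating and hormone release from the hypothalamus. Ube3a, the gene of Angelman syndrome, is silenced on the paternal chromosome in neurons by a long antisense RNA, Snhg14, which begins upstream of Snrpn and runs through the small nucleolar RNA clusters into Ube3a.

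The order of the genes along chromosome 7 is given on build GRCm38.p6 with the spans of RefSeq. Ube3a lies on the plus strand at chr7:59228750-59310837 and Snrpn on the minus strand at chr7:59982495-60450177. Farther along lie Ndn (chr7:62348277-62349928, plus strand), Magel2 (chr7:62376979-62381640, plus strand), Mkrn3 (chr7:62417593-62420153, minus strand) and Peg12 (chr7:62461871-62464510, minus strand). Snhg14 covers chr7:59272737-60450177 on the minus strand, so that its span includes all of Snrpn and overlaps 38101 bases of Ube3a on the opposite strand. In the exons of GENCODE release M21, 1803 bases are shared by Ube3a and Snhg14, and 216 bases of Snrpn are shared with Snurf, the small reading frame that is carried on the same messenger RNA.

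The sequence before the start of transcription is shown for Snrpn, Ndn, Magel2 and Ube3a, since a motif is shared there by Snrpn and Ndn and not by their neighbours. Each run below holds the 100 bases that precede a RefSeq start on GRCm38.p6, read 5′ to 3′ on the strand of the gene. The first is chr7:60450178-60450277 (minus strand), the start that Snrpn shares with Snhg14. The next pair, chr7:60140226-60140325 and chr7:60047979-60048078 (minus strand), precede later starts of Snrpn. The remaining ones are chr7:62348177-62348276 for Ndn, chr7:62376879-62376978 for Magel2 and chr7:59228650-59228749 for Ube3a, all on the plus strand. Capitals mark CGCATGCG, the inner letters of the consensus of the factor NRF1, in Snrpn and Ndn. In Magel2 they mark GGGCGG, the GC box, and in Ube3a CGCCAT, the reverse complement of ATGGCG, the core of the YY1 site.
Snrpn and Snhg14 shared start: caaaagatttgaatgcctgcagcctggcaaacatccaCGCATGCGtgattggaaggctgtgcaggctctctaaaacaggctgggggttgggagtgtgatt
Snrpn, next start: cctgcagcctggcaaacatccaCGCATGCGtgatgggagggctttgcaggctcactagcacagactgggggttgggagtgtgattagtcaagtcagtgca
Snrpn, last start shown: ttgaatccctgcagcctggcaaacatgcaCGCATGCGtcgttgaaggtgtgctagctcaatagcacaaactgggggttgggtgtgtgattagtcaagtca
Ndn: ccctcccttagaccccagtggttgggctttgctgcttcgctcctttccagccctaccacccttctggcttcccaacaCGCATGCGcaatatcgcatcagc
Magel2: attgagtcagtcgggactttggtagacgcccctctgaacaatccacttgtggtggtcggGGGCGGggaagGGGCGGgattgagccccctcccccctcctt
Ube3a: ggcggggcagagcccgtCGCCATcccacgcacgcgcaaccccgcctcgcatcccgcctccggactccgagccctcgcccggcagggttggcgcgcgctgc

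The palindrome CGCATGCG was present in all 4 RefSeq promoters of Snrpn and in that of Ndn, and in none of the promoters of Ube3a, Magel2, Mkrn3 and Peg12. A promoter here is 250 bases before and 50 bases after a start, and the palindrome occurred in 615 of all 32851 such promoters (1.87%). It began 63, 78 and 71 bases before the 3 starts of Snrpn shown and 23 bases before that of Ndn, and at base 37 after the start that Snrpn shares with Snurf. The 30 bases on either side of it were alike among the Snrpn starts, with 53 of 60 positions identical between the first pair and 39 and 40 of 60 against the remaining start. Against Ndn only 17 to 20 of those 60 positions were identical, so the likeness between Snrpn and Ndn was in the palindrome itself. GGGCGG was found on either strand in the promoters of Ndn, Magel2 and Ube3a (35.7% of all promoters hold it) and ATGGCG in those of Mkrn3 and Ube3a (8.93%). The pair of GGGCGG matches in Ndn overlapped each other. CCAAT (37.4% of all promoters) was found in Snrpn and Mkrn3 and TATAAA (13.6%) in Snrpn and Magel2. The promoter of Ube3a held 29 CpG dinucleotides, more than 87.1% of all promoters, whose median was 7. Those of Ndn, Magel2, Mkrn3 and Peg12 held 11, 10, 15 and 12, and the 4 of Snrpn held 2 to 7.

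Total counts per mouse ran from 3948096 (G49, a female at 250 mg/kg) to 11732885, with a median of 7789800. Mice G4 (500 mg/kg, female) and G9 (vehicle, female) stood apart, with median correlations of log2 levels with the other mice of 0.932 and 0.933 against 0.948 to 0.968, and the fits below were repeated without them. The mouse numbers rise with the dose group except for G4, whose number falls between those of the vehicle mice G1 and G5. G4 was used as labelled. Levels of a gene are CPM, counts scaled to library size after TMM normalization, and slopes are log2 changes per 500 mg/kg with sex in the model. All adjusted p-values are from the quasi-likelihood test of edgeR with the Benjamini-Hochberg method over all tested genes, unless another tool is named. Replicates are separate mice, so the p-values measure the spread between animals. The paper states that animals sharing a cage had the same sex and dose. Cage was not in the model, so differences between cages were not separated from dose.

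None of the 4 tested genes passed the adjusted threshold of 0.05 in the dose regression, where 46 of all tested genes (0.29%) did. All 4 had a positive slope, against 51.2% of all tested genes, and their median slope was 0.39 against 0.01 over all genes. Without adjustment 2 of the 4, Magel2 and Ube3a, had p under 0.05, as did 13.2% of all tested genes (7.91% with a positive slope). The DESeq2 likelihood ratio test called 235 genes (1.48%), again none of the 4. In these bulk samples, a change in the share of cells of a type and a change in RNA per cell cannot be told apart.

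Ube3a encodes an E3 ubiquitin ligase, which marks proteins for breakdown. In the vehicle mice G1, G5, G9, G15 and G18 its level was 278, 244, 217, 230 and 255 CPM. At 125 mg/kg it was 246, 226, 259, 304 and 289 CPM in G25, G29, G34, G40 and G45. At 250 mg/kg it was 314, 303, 294 and 281 CPM in G49, G64, G66 and G71, and at 500 mg/kg 333, 304, 252 and 282 CPM in G4, G79, G87 and G90. All 4 mice at 250 mg/kg lay above the highest vehicle mouse, while the other treated groups overlapped the vehicle group. Of all tested genes, 0.788% lay wholly above vehicle in the 250 mg/kg group, against 1.1% in the 125 mg/kg and 2.32% in the 500 mg/kg group. The means were 245 ± 23.5 (SD, n = 5), 265 ± 31.5 (n = 5), 298 ± 13.9 (n = 4) and 293 ± 34.6 CPM (n = 4). The slope was 0.27 (SE 0.11, adjusted p = 0.318 in edgeR), a 1.2-fold difference per 500 mg/kg. Against vehicle the log2 differences were 0.10, 0.27 and 0.26 in rising order of dose (edgeR adjusted p = 0.746, 1.0 and 0.403). Ube3a was the steadiest of the tested members, with a highest level 1.54 times the lowest over the 18 mice.

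**Figure D1:**
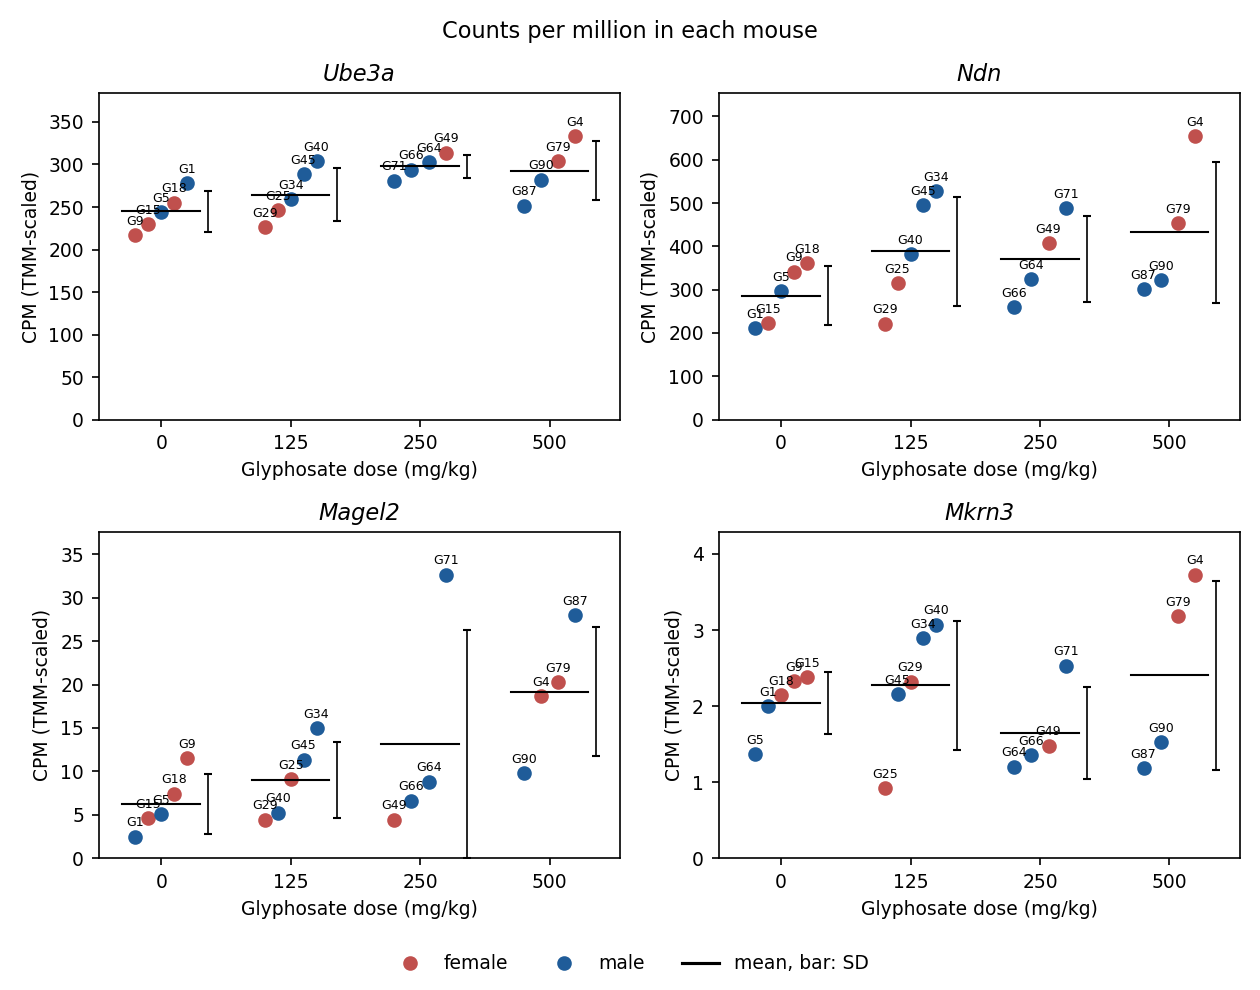
CPM (y axis, from 0, TMM-scaled) of Ube3a, Ndn, Magel2 and Mkrn3 in each of 18 mice at 0, 125, 250 and 500 mg/kg glyphosate (x axis), with females in red and males in blue, the group mean as a line and the SD as a bar. Ube3a stays between 217 and 333 CPM, whereas Magel2 runs from 2.46 to 32.6 CPM with mouse G71 far above the other mice at 250 mg/kg.

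The antisense gene Snhg14 had means of 75.8 ± 8.57, 82.8 ± 12.4, 90.8 ± 8.65 and 87.2 ± 25.6 CPM in the vehicle, 125, 250 and 500 mg/kg groups. Its highest level was 123 CPM in G4 and its lowest 63.3 CPM in G87, both at 500 mg/kg, so the highest dose spanned the range of all mice. The slope of Snhg14 was 0.20 (SE 0.16, adjusted p = 0.608 in edgeR) and 0.02 without G4. Over the 18 mice Ube3a and its antisense gene varied together, with Pearson's r of 0.799 (permutation p = 4e-05, adjusted p = 0.00084) and Spearman's rho of 0.802 (permutation p = 0.00014, adjusted p = 0.00483). The correlation was 0.840 after G9 and G29, the mice farthest from the median of Ube3a, were left out, and 0.898 for what remained after dose and sex were fitted. It was one of 42 relations computed, over which the permutation p-values (two-sided) were adjusted. Snhg14 was also the tested gene whose level was most like that of Ube3a. The genes lie on opposite strands with shared exon bases, the libraries were stranded, and the strand setting of the counting is not given in the sources used here, so the part of shared reads in this correlation was not tested.

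**Figure D2:**
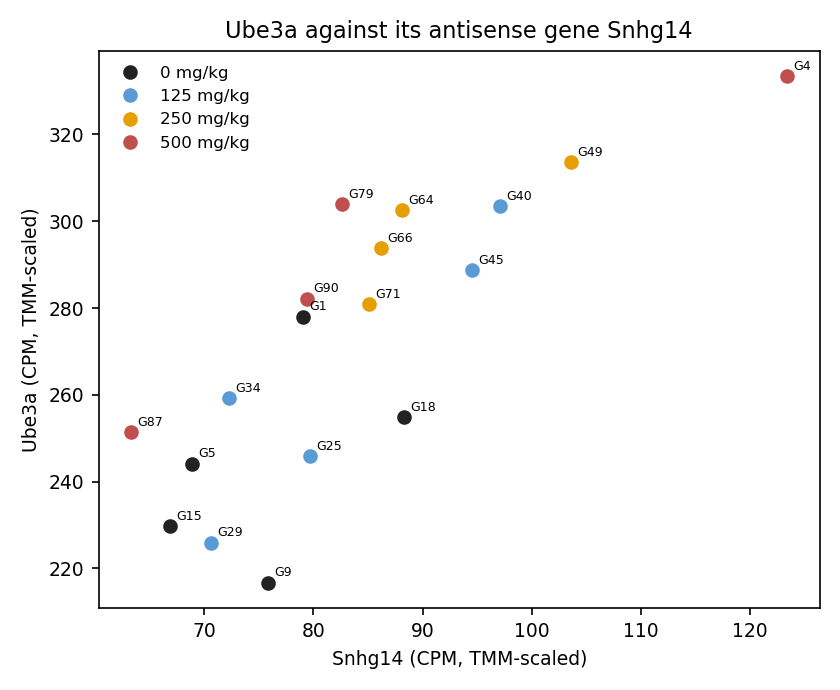
Level of Ube3a (y axis, CPM) against that of its antisense gene Snhg14 (x axis, CPM) in each of 18 mice, coloured by dose. The points rise together (r = 0.799), with G4 at the top right at 123 and 333 CPM.

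Snrpn encodes SmN, a neuronal protein of the core of splicing particles. It had 0 to 4 counts in each mouse and 23 counts in all 18, with 4 mice at 0 (G4, G9, G25 and G71). By group these were 6 counts in the vehicle mice and 9, 5 and 3 in the treated groups in rising order of dose. The overlapping entry Snurf was at 0 counts in all 18 mice. How reads over the exons that these entries share were assigned is not given in the sources used here, and the part of that step in the low counts was not tested. A dose effect on Snrpn was therefore not detectable from these counts, and they give no level of its RNA. Snhg14, which shares the upstream start of Snrpn, had 420 to 960 counts per mouse in the same libraries.

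Ndn encodes necdin, a MAGE family protein of postmitotic neurons, and it lies in a single span of 1652 bases. Its level in the vehicle mice G1, G5, G9, G15 and G18 was 211, 296, 341, 223 and 361 CPM. At 125 mg/kg it was 315, 222, 527, 382 and 495 CPM in G25, G29, G34, G40 and G45. At 250 mg/kg the values were 408, 324, 260 and 488 CPM in G49, G64, G66 and G71, and at 500 mg/kg 655, 454, 301 and 322 CPM in G4, G79, G87 and G90. Every treated group had mice inside and mice above the vehicle range, and the 2 males at 500 mg/kg were the ones inside it. The means were 286 ± 67.8, 388 ± 126, 370 ± 99.4 and 433 ± 163 CPM in rising order of dose. The slope was 0.51 (SE 0.27, adjusted p = 0.436 in edgeR), a 1.42-fold difference per 500 mg/kg whose 95% confidence interval ran from -0.06 to 1.07. Against vehicle the log2 difference was already 0.48 at 125 mg/kg and was 0.60 at 500 mg/kg (edgeR adjusted p = 0.528 and 0.416). Without G4, the mouse with the highest level, the slope was 0.25.

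Magel2 encodes a MAGE protein that works with a ubiquitin ligase in the recycling of membrane proteins from endosomes, and its transcripts are concentrated in the hypothalamus. It had the largest slope of the 4 tested members. Its level in the vehicle mice G1, G5, G9, G15 and G18 was 2.46, 5.05, 11.5, 4.63 and 7.42 CPM. At 125 mg/kg it was 9.10, 4.46, 14.9, 5.26 and 11.3 CPM in G25, G29, G34, G40 and G45. The level was 4.44, 8.80, 6.64 and 32.6 CPM in G49, G64, G66 and G71 at 250 mg/kg, and 18.6, 20.3, 28.0 and 9.81 CPM in G4, G79, G87 and G90 at 500 mg/kg. At 500 mg/kg 3 of the 4 mice exceeded all vehicle mice and G90 lay inside the vehicle range, while at 250 mg/kg only G71 lay above it. These levels rest on 16 to 232 counts per mouse.

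The mean of Magel2 was 6.22 ± 3.45 CPM in the vehicle mice and 9.02 ± 4.34, 13.1 ± 13.1 and 19.2 ± 7.46 CPM at 125, 250 and 500 mg/kg (SD, n = 5, 5, 4 and 4). The slope was 1.57 (SE 0.48, unadjusted p = 0.00378, adjusted p = 0.168 in edgeR), a 2.97-fold difference per 500 mg/kg with a 95% confidence interval of 0.57 to 2.57 on the log2 scale. The adjusted p was 0.0611 in the DESeq2 likelihood ratio test and 0.0692 in edgeR without the vehicle mouse G9, the lowest value over leaving out each mouse. With mice blocked by the number that opens their tag, whose meaning the labels do not give, the slope turned to -0.060 (edgeR adjusted p = 1.0). Most of these numbers were held by mice of a single dose. In the others the vehicle mice were female and the treated mice male. That fit can therefore barely separate dose from tag number and sex. Between 500 mg/kg and vehicle the log2 difference was 1.58 (SE 0.54, adjusted p = 0.292 in edgeR), where 3 of all tested genes (0.0189%) were called and 11.6% had an unadjusted p under 0.05. It was 0.99 at 250 mg/kg (edgeR adjusted p = 1.0) and 0.11 there without G71. At 125 mg/kg it was 0.45 (edgeR adjusted p = 0.782). No gene was called at either lower dose with edgeR, although 11.2% and 3.76% of the tested genes had an unadjusted p under 0.05 there, and DESeq2 called 40 genes at 125 mg/kg and 0 at 250 mg/kg, no tested member among them. All 4 tested members had a positive difference at 125 and at 500 mg/kg, against 49.8% of all genes in either comparison, and 3 of the 4 at 250 mg/kg, against 49.9%. For a difference among any of the groups, 0.0441% of all genes were called and 15% had an unadjusted p under 0.05, and Magel2 had an unadjusted p of 0.0447 (adjusted p = 0.323 in edgeR).

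Mkrn3 encodes a makorin, a zinc finger ubiquitin ligase known for its brake on the onset of puberty. It had only 6 to 29 counts per mouse. Its level was 2.0, 1.37, 2.33, 2.38 and 2.14 CPM in the vehicle mice G1, G5, G9, G15 and G18, and 0.921, 2.32, 2.89, 3.07 and 2.16 CPM in G25, G29, G34, G40 and G45 at 125 mg/kg. At 250 mg/kg it was 1.48, 1.21, 1.35 and 2.53 CPM in G49, G64, G66 and G71, and at 500 mg/kg it was 3.73, 3.18, 1.18 and 1.53 CPM in G4, G79, G87 and G90. At the highest dose the females were above and the males within or below the vehicle range. The slope was 0.13 (SE 0.36, adjusted p = 0.914 in edgeR), with a 95% confidence interval from -0.63 to 0.89, and it was negative without G4 (-0.16) or G79 (-0.01).

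Peg12 encodes a relative of the Frat proteins, which bind the kinase Gsk3. It had 0 to 4 counts per mouse and 37 in all 18, with G1 and G40 at 0. The counts were 13 in the vehicle mice and 10, 6 and 8 at 125, 250 and 500 mg/kg, too few for the test. With no filter on low counts, when 23031 genes entered the fit, the slope of Peg12 was -0.14 (edgeR adjusted p = 0.961) and that of Snrpn -0.68 (edgeR adjusted p = 0.850). A dose effect on either was not detectable from these counts. Peg12 resembles Frat1 and Frat2 in sequence, and how reads that match several genes were counted is not given in the sources used here.

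Per kilobase of GENCODE exon, the mean level over the 18 mice was 99 CPM for Ndn, 13.2 for Ube3a, 3.20 for Snhg14, 2.46 for Magel2 and 0.824 for Mkrn3. By that measure Ndn was the most abundant of the tested members, and Snrpn and Peg12 were not ranked. However, GENCODE gives the exons of Ndn 3694 bases and RefSeq its whole span 1652, and the counted annotation is not named in the sources used here. Over the 18 mice the highest level was 3.11 times the lowest for Ndn, 13.2 times for Magel2 and 4.05 times for Mkrn3. Magel2 and Ndn, which lie side by side, varied together with r of 0.656 (permutation p = 0.00343, adjusted p = 0.0360) and rho of 0.616 (permutation p = 0.00753, adjusted p = 0.0633), and r was 0.612 without G4 and G34, the mice farthest from the median of Ndn. For Ndn and Snhg14, r was 0.618 (permutation p = 0.00617, adjusted p = 0.0501), rho 0.600 (permutation p = 0.00971, adjusted p = 0.0680), and r 0.607 without G4 and G34 or 0.465 without G4 and G9. Smaller correlations were found for Magel2 with Ube3a (r = 0.157, permutation p = 0.530, adjusted p = 0.740) and with Mkrn3 (r = 0.191, permutation p = 0.447, adjusted p = 0.671).

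No tested member differed between the sexes at the adjusted threshold, where 7 of all tested genes (0.0441%) did and 10.1% had an unadjusted p under 0.05. The mean of Magel2 was 10.1 ± 6.33 CPM in 8 females and 12.5 ± 10.1 CPM in 10 males, that of Ndn 372 ± 140 and 361 ± 108 CPM, and that of Ube3a 266 ± 44.9 and 278 ± 20.7 CPM. The slope on dose was compared between the sexes as a test of its own, in which no gene was called by edgeR or DESeq2 (0%) and 1.65% had an unadjusted p under 0.05 in edgeR. Ube3a was among the latter, with a slope lower by 0.48 in males (SE 0.21, unadjusted p = 0.0323, adjusted p = 1.0 in edgeR). Fitted alone, females had a Ube3a slope of 0.47 and males 0.00. For Ndn the slopes were 0.90 in females and -0.10 in males (difference -1.01, SE 0.52, adjusted p = 1.0 in edgeR), and for Mkrn3 0.64 and -0.67 (difference -1.32, SE 0.70, adjusted p = 1.0 in edgeR). For Magel2 both were positive, 1.31 in females and 1.90 in males. G4, which had the highest level of Ube3a, Ndn and Mkrn3, is 1 of the 2 females at 500 mg/kg, and without it the difference for Ndn was -0.75.

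**Figure D3:**
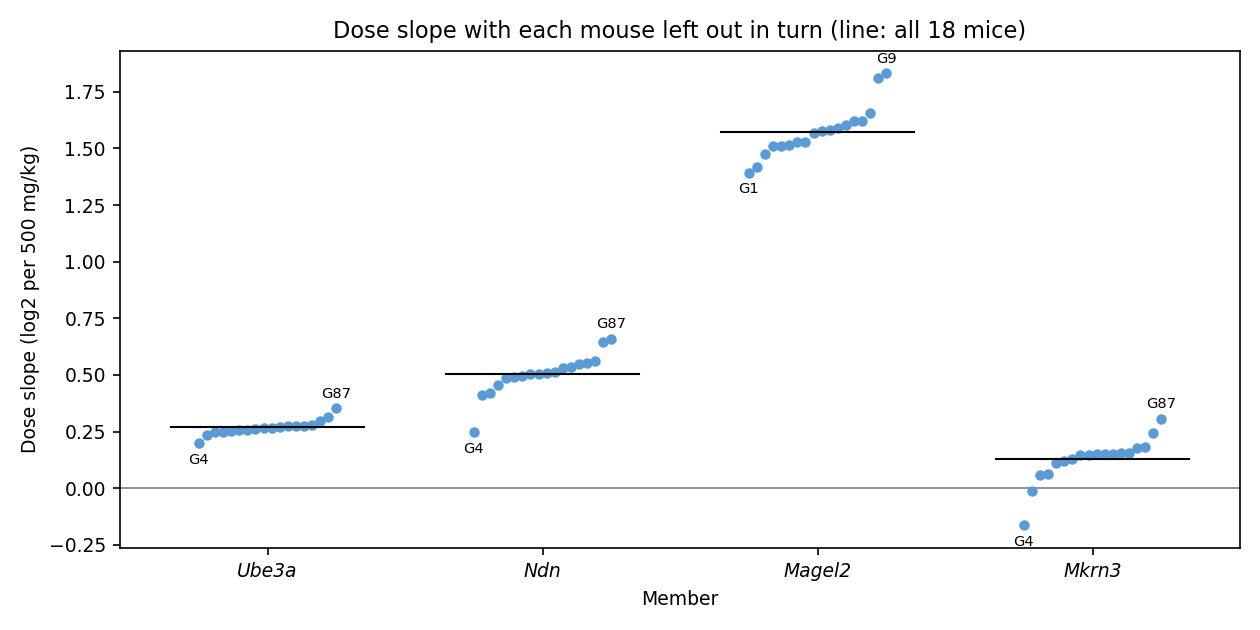
Dose slope (y axis, log2 per 500 mg/kg) of each tested member when each of 18 mice is left out in turn (points, in order of value, with the mouse left out named at both ends) and with all mice (line). Magel2 stays between 1.39 and 1.83, Ndn has its lowest slope, 0.25, without G4, and Mkrn3 crosses 0.

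The neighbouring genes were taken from a list of 21, of which 17 were in the table and 15 were tested. None passed the threshold in the dose regression, 12 of the 15 had a positive slope, against 51.2% of all tested genes, and their median slope was 0.18. Among them Nipa2, a magnesium transporter gene just outside the imprinted interval, had the smallest p (slope -0.30, SE 0.14, edgeR adjusted p = 0.354). Atp10a, a lipid flippase gene beside Ube3a, had a slope of 0.44 (edgeR adjusted p = 0.431). Ipw and Snord64, noncoding RNAs within the Snhg14 span, had slopes of 0.48 (SE 0.38) and 0.21 (SE 0.15), with edgeR adjusted p of 0.618 and 0.585. Magel2 had the largest slope of the region with all mice, the next being 0.51 for Ndn, but no test of that difference was made. With the block by tag number, which can barely separate dose from tag, the slope of Magel2 was -0.060 and that of Ndn 0.17. Without G4 the slopes of Magel2, Ndn and Ube3a were 1.57, 0.25 and 0.20. In that fit 12 of the 15 neighbours had a positive slope, against 49.9% of all tested genes.

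**Figure D4:**
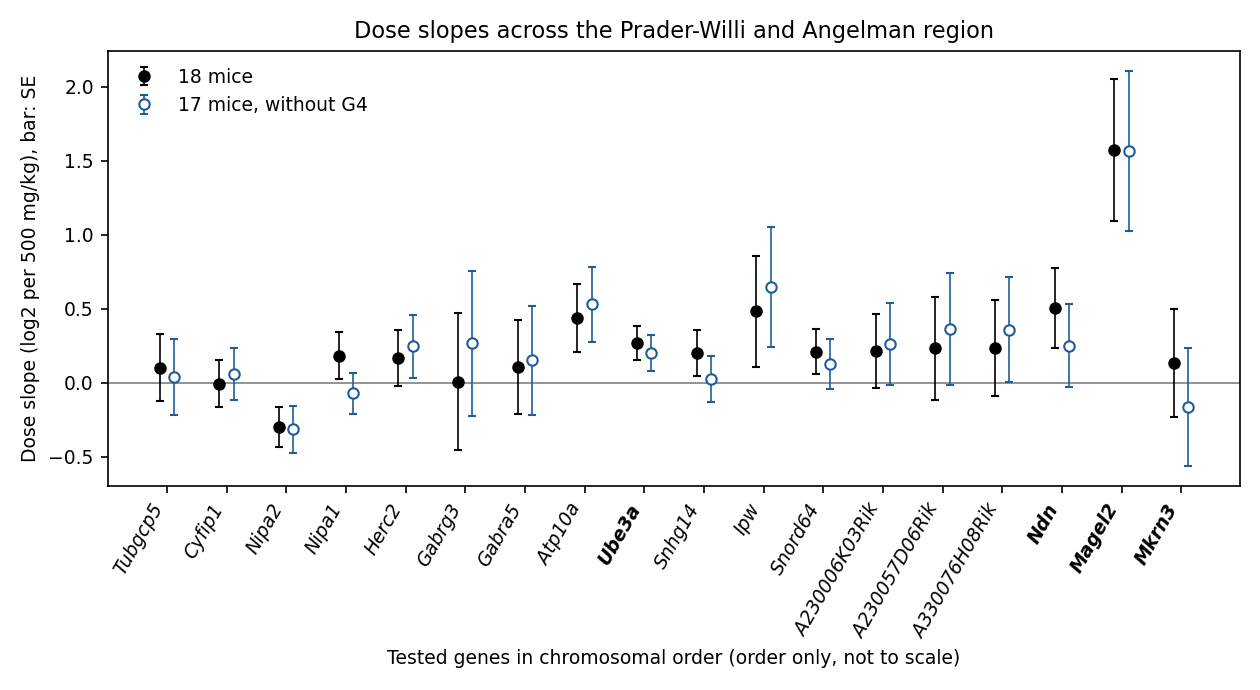
Dose slope (y axis, log2 per 500 mg/kg, bar: SE) of 18 tested genes of the region in chromosomal order (x axis, members in bold), with all 18 mice (filled) and without G4 (open). Magel2 has the highest slope with and without G4 (1.57 both times; the fit blocked by tag number, with a slope of -0.060, is not drawn), and the bars of most other genes cross or lie near 0.

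Genes that work with the members or belong to their families were also read from the table. None of the 6 tested Sm core proteins, the family of SmN in splicing particles, was called. All 6 had a negative slope with a median of -0.41, while 51.2% of all tested genes had a positive one. Snrpe had the smallest p (-0.79, edgeR adjusted p = 0.319). Of the 6 tested relatives in the MAGE family none was called, and Magee2 had the smallest p (slope 0.53, edgeR adjusted p = 0.366). The 11 tested partners of Magel2 in ubiquitination and endosome recycling had a median slope of -0.01 with none called, Washc4 having the smallest p (slope 0.31, edgeR adjusted p = 0.304). The makorins Mkrn1 and Mkrn2 had slopes of 0.04 and 0.08. None of the 9 tested genes of the Frat, Gsk3 and beta-catenin destruction group was called, with Axin2 at -0.62 (edgeR adjusted p = 0.228), and none of the 10 enzymes and partners of Ube3a.

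Other imprinted clusters were read from the same dose regression for comparison. In the Peg3 domain, also on chromosome 7, Zim1 and Peg3 rose, with slopes of 1.93 (SE 0.30, edgeR adjusted p = 0.0127) and 0.82 (SE 0.17, edgeR adjusted p = 0.0427). Usp29 had a slope of 0.88 (adjusted p = 0.0962 in edgeR and 0.0247 in DESeq2), and DESeq2 called all 3 of these genes. Zim1 missed the threshold in 2 of 18 fits that left out 1 mouse each (without G4, adjusted p = 0.128, or G87), and Peg3 in 9 of 18 (without G4, adjusted p = 0.336, or G1, G5, G15, G25, G34, G40, G87 or G90). In the Dlk1-Meg3 domain edgeR called none of 7 genes and DESeq2 called 1, Dlk1, which had a slope of 2.29 (SE 0.50, adjusted p = 0.0576 in edgeR and 0.0240 in DESeq2). Dlk1 also passed in limma-voom, and in edgeR without the vehicle mice or without G9 (adjusted p = 0.0329), G18, G29, G45 or G79. Of 28 tested imprinted genes elsewhere Peg10 (1.56, edgeR adjusted p = 0.0368) and Zdbf2 (0.91, edgeR adjusted p = 0.0341) rose. Of the 28, 26 had a positive slope, against 51.2% of all tested genes. DESeq2 called 3 of them, Peg10, Zdbf2 and Kcnk9 (slope 0.74, adjusted p = 0.0576 in edgeR and 0.00755 in DESeq2). In the edgeR fits that left out 1 mouse each, Peg10 missed the threshold in 7 of 18 and Zdbf2 in 5 (both without G1, G4, G5, G15 and G87, and Peg10 also without G25 and G40), with adjusted p of 0.288 and 0.265 without G4. With the block by tag number Zim1, Peg3, Peg10 and Zdbf2 all missed the threshold (edgeR adjusted p = 1.0), with slopes of 0.84, 0.54, 1.27 and 0.71. Most tag numbers were held by mice of a single dose, so the blocked fit can barely separate dose from tag and is a weak test of these calls. The counts of imprinted genes called in the dose regression stand beside 0.246% of all genes that rose in edgeR and 1.48% called in DESeq2. The lists were chosen with earlier results known.

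The levels of Magel2 and Ndn were set against markers of the tissue a hemisphere can hold. Markers of glutamatergic neurons of the cortex and hippocampus were present in all mice, with at most 1 of 16 at 0 counts, but their summed level was 761 CPM in G9 and 943 CPM in G4 against 2081 to 6237 CPM in the other mice. Hindbrain markers were highest in the same mice, at 277 CPM in G9 and 162 CPM in G4 against at most 82.0 CPM elsewhere. Of 19 hypothalamic markers 14 were tested, and all 14 had a positive slope with a median of 2.83, against 51.2% positive over all tested genes. The filter asked for enough counts in only as many mice as the smallest group, so sparse markers could pass through the few mice rich in them. In edgeR 1 of the 14 was called (Irs4, slope 3.22, adjusted p = 0.0361), with an adjusted p of 0.265 without G4. DESeq2 called 3 of the 14, Irs4, Trh and Pomc. Their summed level ranged between 9.79 and 24.3 CPM in the vehicle mice. In the treated groups, in rising order of dose, it ranged between 12.1 and 80.3, 17.2 and 133, and 25.6 and 173 CPM. From 0 to 11 of the 19 were at 0 counts in a mouse, G4 having none at 0 and G49 having 11. The mean log2 level of the tested hypothalamic markers was highest in G79, G87, G71, G34 and G4, which were also the 5 mice with the highest Magel2.

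Magel2 and that marker level had r of 0.835 (permutation p = 2e-05, adjusted p = 0.00084) and rho of 0.781 (permutation p = 0.00023, adjusted p = 0.00483) over the 18 mice. The correlation was 0.796 without G79 and G87, the mice farthest from the median marker level, 0.742 after dose and sex were fitted, and 0.404 over the 13 mice with the lowest marker levels. For Ndn r was 0.613 (permutation p = 0.00716, adjusted p = 0.0501) and 0.778 without G79 and G87. Its rho was 0.668 (permutation p = 0.00342, adjusted p = 0.0479), so only the rank correlation passed 0.05. With the same markers r was 0.427 for Mkrn3 (permutation p = 0.0779, adjusted p = 0.250) and 0.312 for Ube3a (permutation p = 0.204, adjusted p = 0.390). Markers of midbrain dopamine neurons had a median slope of 1.41 with 3 of 12 called in edgeR (1 without G4) and 4 in DESeq2. Of these 12 markers 9 had a positive slope and 3 a negative one. Their level had r of 0.690 with Magel2 (permutation p = 0.00193, adjusted p = 0.0270) and rho of 0.645 (permutation p = 0.00511, adjusted p = 0.05365). Here only Pearson's correlation passed 0.05. Markers of cortical and hippocampal glutamatergic neurons had a median slope of -0.96 with 0 of 16 called, 13 having a negative slope and 3 a positive one. Their r with Magel2 was -0.420 (permutation p = 0.0834, adjusted p = 0.250). All 15 oligodendrocyte markers had a positive slope with a median of 0.72, and none was called in edgeR, where 13 had an unadjusted p under 0.05, while DESeq2 called 3. Over all tested genes 51.2% had a positive slope and 13.2% an unadjusted p under 0.05 in edgeR. The level of the oligodendrocyte markers is given next. Their summed level was highest in G4, at 17615 CPM against 4271 to 10869 CPM in the other mice, and r with Magel2 was 0.484 (permutation p = 0.0417, adjusted p = 0.166). Of 13 hindbrain markers 10 had a positive slope (median 0.64, none called in edgeR or DESeq2, 1 with an unadjusted p under 0.05), and r with Magel2 was 0.389 (permutation p = 0.111, adjusted p = 0.292). For Ndn, r was 0.539 with the midbrain dopamine markers and -0.523 with the glutamatergic markers (adjusted permutation p = 0.112 and 0.119). With the oligodendrocyte and hindbrain markers its r was 0.444 and 0.338 (adjusted permutation p = 0.221 and 0.378). The part of tissue makeup in the levels of Magel2 and Ndn was not tested.

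**Figure D5:**
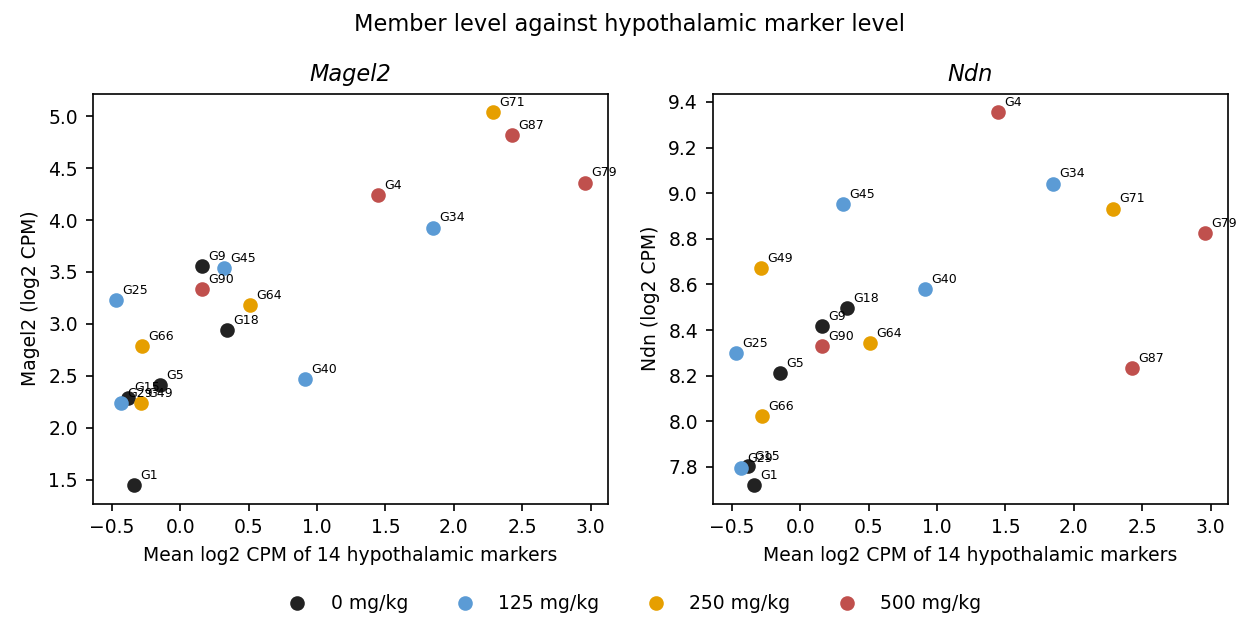
Level of Magel2 (left) and Ndn (right) as log2 CPM (y axis) against the mean log2 CPM of 14 tested hypothalamic markers (x axis) in each of 18 mice, coloured by dose. The 5 mice with the highest marker levels (G4, G34, G71, G79 and G87, from 3 dose groups) are also the 5 highest for Magel2, while for Ndn G45 takes the place of G87 among the 5 highest.

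The genes whose level was most like that of each member over the 18 mice were found by Pearson's correlation of log2 CPM, as a description. For Magel2 these were Gpr165 (r = 0.908), the imprinted Peg10 (0.899) and the hypothalamic marker Irs4 (0.886). For Ndn they were Gabrg1, a GABA-A receptor subunit gene (0.920), Pros1, the gene of protein S (0.882), and Zcchc12 (0.818). For Mkrn3 the likeness was weaker, with Pwp1 (0.737), Hilpda (0.734) and Mfsd14a (0.728). For Ube3a, 0610010F05Rik (0.776) followed Snhg14 and an Entrez entry without a symbol (0.796). The points of each such correlation share their libraries, with their depth and composition.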

How the data were processed

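RNA was isolated by the authors from brain hemispheres, and stranded libraries depleted of ribosomal RNA were sequenced in paired reads. According to the submitters' processing notes the tools were STAR 2.7.5b, featureCounts, MultiQC 1.12 and DESeq2 1.34.0, with build GRCm38. The deposited values are raw counts of reads per Entrez gene, not normalized. The annotation release, strand setting and treatment of shared reads are not given in the sources used here. Columns were matched to mice by the names in the labels, and 0 columns were left unmatched.

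Symbols came from RefSeq (25275 of 27179 identifiers). Counts were fitted in R 4.3.3 with edgeR 4.0.16 (TMM, filterByExpr by group at a minimum count of 10, quasi-likelihood test), with sex as a covariate and dose divided by 500 mg/kg. Groups were also compared with vehicle, and slopes between sexes. The biological coefficient of variation was 25.8%. log2 CPM used a prior count of 2. Correlations were tested with 100000 permutations, so that the smallest p they can give is 1e-05. DESeq2 1.42.0, limma-voom (limma 3.58.1), sva 3.50.0, other scalings, filters and subsets of mice were tried as alternatives. The dose regression was tested on simulated data with known slopes. The 32 pairs of mice within groups differed by more than sampling noise (lowest chi-square per degree of freedom 9.02).

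The named genes are the 6 members, listed relatives and neighbours that passed or the 3 with the smallest p of each list, and the 3 most alike genes per member, and the text names a subset of these. Snhg14, Ipw and Snord64 were added after their values were seen. Members and lists were chosen with earlier results of these data known. Promoters came from RefSeq on GRCm38.p6, and no proteins were used. The values of 1 tested gene of the region are not reported here.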

Additional observations from a re-analysis of the deposited data

Results flagged for a closer look

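Of 24 combinations of a member and a dose group, 1 had a mouse that lay far from the rest of its group by Dixon's criterion, which flags about 1 in 20 by chance. Magel2 was at 32.6 CPM in G71, a male at 250 mg/kg, where the next highest mouse of the group, G64, was at 8.80 CPM, a gap of 0.845 of the group's range against a critical value of 0.829 for 4 mice. The criterion was applied to CPM only. As log2 CPM the levels were 2.23, 2.79, 3.18 and 5.04 in G49, G66, G64 and G71, where G71 stood less far apart. The summed level of the hypothalamic markers was also highest in G71 within that group, at 133 CPM. Without G71 the log2 difference of Magel2 between 250 mg/kg and vehicle was 0.11 in place of 0.99.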

How the results depend on the processing

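No tested member was called under any of the 33 alternatives to the dose regression, in which the adjusted p of Magel2 ranged from 0.0611 to 1.0 and its slope from -0.060 to 1.90. The slope of Ube3a remained positive throughout, from 0.00 to 0.49. The count of genes called in the dose regression was 29 with no filter, 235 with DESeq2, 12 with 1 surrogate variable, 27 with dose as rank, 7 without the vehicle mice, 2 without G4 and G9, and 0 without the 500 mg/kg mice, in males alone or in females alone. It ranged from 2 (without G4) to 127 (without G79) when each mouse was left out. With mice blocked by the number that opens their tag (a replicate block), 0 genes were called, the slope of Magel2 was -0.060 and that of Mkrn3 -1.15. The labels do not say what that number marks. Most of the numbers were held by mice of a single dose, so that fit can barely separate dose from tag number. Mkrn3 also had a negative slope without the 500 mg/kg mice (-0.69), in males (-0.67) and without G4 and G9 (-0.15), and ranged from -0.16 to 0.31 over leaving out each mouse. In males the slopes of Ndn and Snhg14 were -0.10 and -0.13. Against vehicle at 125 mg/kg, 40 genes were called with the DESeq2 Wald test, 1 with DESeq2 size factors and 1 with no filter, and 0 to 1 when a mouse was left out. At 500 mg/kg the counts were 1 with only the 2 groups, 171 with DESeq2, 9 with no filter and 0 (without G4) to 17 (without G79) over leaving out a mouse, over which the difference of Mkrn3 ranged from -0.050 to 0.44. For any group difference they were 40 with DESeq2 and 1 to 22 over leaving out a mouse, and for the sex difference 24 and 7 to 11. The sex difference ranged from -0.11 to 0.087 for Ndn and from -0.075 to 0.41 for Magel2. The causes of these changes were not tested. Low counts limit Mkrn3, Snrpn and Peg12.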
